A study of Mus musculus with 14 samples.

Results

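The uterus of pregnant mice given PBS, taken 12 days after fertilization, was compared with the uterus of non-pregnant mice across every detected gene. The arrays were chosen by their labels: 5 held uterus of PBS-treated pregnant mice and 5 held uterus of non-pregnant mice, which together are 10 of the 14 arrays of the series. All mice were C57BL/6 and 8 weeks old, and nothing in the labels gives the non-pregnant mice an injection of PBS (phosphate-buffered saline, here the vehicle of an antibody given to the other pregnant mice of the study). The labels number the samples without saying that each came from its own animal, and p-values therefore rest on the spread among these arrays, part of which may be technical. Nor do the labels say whether placentas and embryos were left in the tissue. RNA was labelled as biotin cRNA and hybridised to Illumina BeadChips, and a level below is a background-corrected, quantile-normalised log2 intensity.

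Around this stage of mouse pregnancy the lining of the uterus has turned into decidua, the placenta has begun to exchange nutrients and to secrete hormones of the prolactin family, the yolk sac makes plasma proteins and the first generation of red blood cells, and the embryo is forming its organs. Progesterone keeps the muscle of the uterine wall quiet, and natural killer (NK) cells loaded with granzymes gather in the decidua. The non-pregnant uterus instead passes through the oestrous cycle, in which oestrogen drives the surface epithelium to secrete.

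Median probe intensity lay between 93.0 and 139 and between 16607 and 19729 probes were detected per array. Correlations between arrays were 0.969 to 0.987 within the PBS group and 0.939 to 0.989 within the non-pregnant group. The first principal component held 80.9% of the variance and separated the groups, with PBS arrays at -66.57 to -65.15 and non-pregnant arrays at 65.02 to 67.00. A second component, with 8.12%, held PBS arrays between -7.52 and 5.75 but spread the non-pregnant arrays 1 to 5 to 11.45, -37.05, 36.19, 20.93 and -31.29.

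Of 10168 genes tested, 5480 differed between PBS-treated pregnant and non-pregnant uterus (limma, adjusted p under 0.05), which is 53.9% of the genes. Of these, 2712 were higher and 2768 lower in the pregnant uterus, or 26.7% and 27.2% of the genes tested. A difference of at least 2-fold was called for 1428 higher genes (14%) and 1210 lower genes (11.9%). The groups did not overlap for 4173 genes (41%). With every array scaled to a common median in place of quantile normalization, 2343 genes were higher and 1305 lower, a share of 64.2% higher against 49.5%, and the median log2 fold change of all genes was 0.16 against -0.03. Quantile normalization sets all arrays to the same distribution, so each rise or fall below is relative to the other genes of the array.

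Rises were larger than falls. Called genes that differed at least 8-fold numbered 308 higher and 82 lower, and at least 64-fold 56 higher and 5 lower. Among genes detected on all 10 arrays the balance turned, with 629 at least 2-fold higher and 881 at least 2-fold lower. Above background on all 5 PBS arrays and on no non-pregnant array were 524 genes (5.15%), and 132 genes (1.3%) had the opposite pattern. For 5688 genes (55.9%) the 95% interval of the difference lay within 2-fold either way. The bar chart of called genes by size of difference shows these counts.

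**Figure D1:**
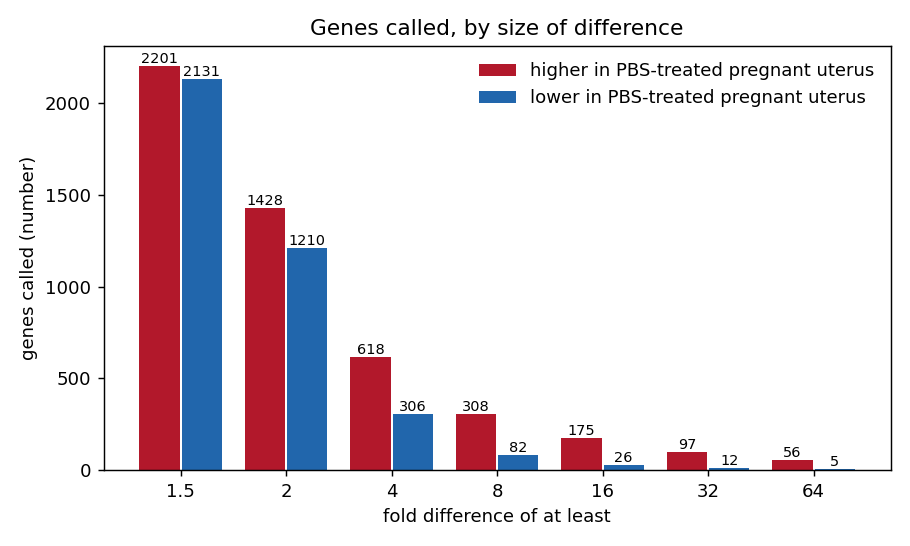
Number of genes called (limma, adjusted p under 0.05) that differed by at least the fold on the horizontal axis, with genes higher in PBS-treated pregnant uterus as red bars and genes lower there as blue bars. The 2 directions are close at 2-fold, with 1428 higher and 1210 lower, and part at 16-fold, with 175 higher and 26 lower.

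Genes of the placenta made up the group with the largest rises. 9 of 9 measured genes rose and 0 fell among the prolactin family hormones of the placenta, 13 of 13 measured genes rose and 0 fell among pregnancy-specific glycoproteins and placental Ceacam genes, 6 of 6 measured genes rose and 0 fell among placental cathepsins and 4 of 4 measured genes rose and 0 fell among reproductive homeobox (Rhox) genes. Their median log2 fold changes were 7.26, 6.53, 5.99 and 8.02, against -0.03 over all genes tested. Of the measured genes, 9, 12, 5 and 4 in turn were above background on no non-pregnant array. A gene was measured where 5 or more of the 10 arrays detected it, so these genes entered through the pregnant arrays alone. They could be called higher but not lower, so the absence of falls among them was set by the filter. The same holds for such genes in the lists below. The reverse holds for genes above background on no PBS array, which could be called lower but not higher. With genes below background on every non-pregnant array set to their bound, the medians were 6.48, 5.66, 5.59 and 7.21. Such a bound sets the bright group against the lowest signal that counts as detected, and gives the folds written below as "at least". Any other value given for a rise or a fall is a log2 fold change, pregnant minus non-pregnant, with its standard error (SE) in brackets where shown. A list's range over the settings covers 22 other ways of processing, and is given where its median moved by over 1.5 times. Without background correction, and in the authors' series matrix, differences of called genes were smaller, at a median of 0.672 and 0.666 times those given here. Counts with median scaling stand in brackets where they differ by 1.5 times or more and by at least 2 genes. Each count of a list is to be read beside the 26.7% of all genes called higher and the 27.2% called lower. Counts with median scaling are to be read beside its 2343 higher and 1305 lower of 10168 genes. The median of the cathepsins was 3.85 to 6.08 over the settings.

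Prl2b1, a prolactin family hormone, had log2 levels of 13.77, 14.01, 13.25, 13.60 and 14.05 on PBS arrays 1 to 5, against 4.40, 4.27, 4.30, 4.32 and 4.29 on non-pregnant arrays 1 to 5. It was above background on no non-pregnant array and was at least 375-fold higher in the pregnant uterus (adjusted p = 1.29e-13). Prl4a1, Prl2c2, Prl7b1 and Prl8a8 of the same family were at least 104-fold, 98.6-fold, 89-fold and 100-fold higher. The smallest rises in the family were those of Prl7c1 and Prl8a9, at least 2.6-fold and 1.97-fold. Prl2a1 lay at 9.59, 10.14, 8.99, 9.70 and 11.56 on PBS arrays 1 to 5 and was among the genes that differed most between PBS arrays, with array 5 the highest.

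Psg21, a secreted pregnancy-specific glycoprotein, was at 14.03, 14.07, 13.97, 13.87 and 14.23 in the pregnant uterus, against 4.35, 4.40, 4.28, 4.30 and 4.40 in the non-pregnant uterus, a rise of at least 462-fold. Ceacam11, a relative with the same immunoglobulin-like build, rose at least 470-fold, Psg27 at least 245-fold and Psg25 at least 82.3-fold. Ctsj, a cysteine protease found in rodent placenta, had levels of 14.38, 14.59, 14.33, 14.41 and 14.10 in the pregnant uterus and 4.33, 4.39, 4.34, 4.32 and 4.33 in the non-pregnant uterus, and rose at least 579-fold. Its relatives Ctsq and Ctsr rose at least 254-fold and by 177-fold, the last with 1 non-pregnant array above background. The pregnant and non-pregnant ranges of all these genes lie far apart, and none had a non-pregnant array near the PBS arrays.

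Transcription factors and surface proteins of the trophoblast, the cell lineage that builds the placenta, followed the same direction: 19 of 22 measured genes rose and 1 fell, with a median of 2.92, or 2.75 with genes at their bound, and 1.82 to 3.06 over the settings. Rhox9 and Rhox5, homeobox genes of reproductive tissue, rose at least 352-fold and 187-fold. Phlda2, an imprinted brake on placental growth, rose at least 85-fold, and Tfap2c and Dlx3, factors that trophoblast needs, rose by 5.73 (SE 0.17) and at least 24.2-fold. Synb and Syna, the syncytins that fuse trophoblast cells into a syncytium, were at least 9.06-fold and 3.32-fold higher. The gene of this list that fell was Itga7, an integrin chain also found in muscle, at -1.54 (SE 0.19). Plac8 and Ovol2 were not called, with 95% intervals of -0.54 to 0.26 and -0.73 to 0.41. Of the 22 measured genes, 13 were above background on no non-pregnant array and could not be called lower.

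**Figure D2:**
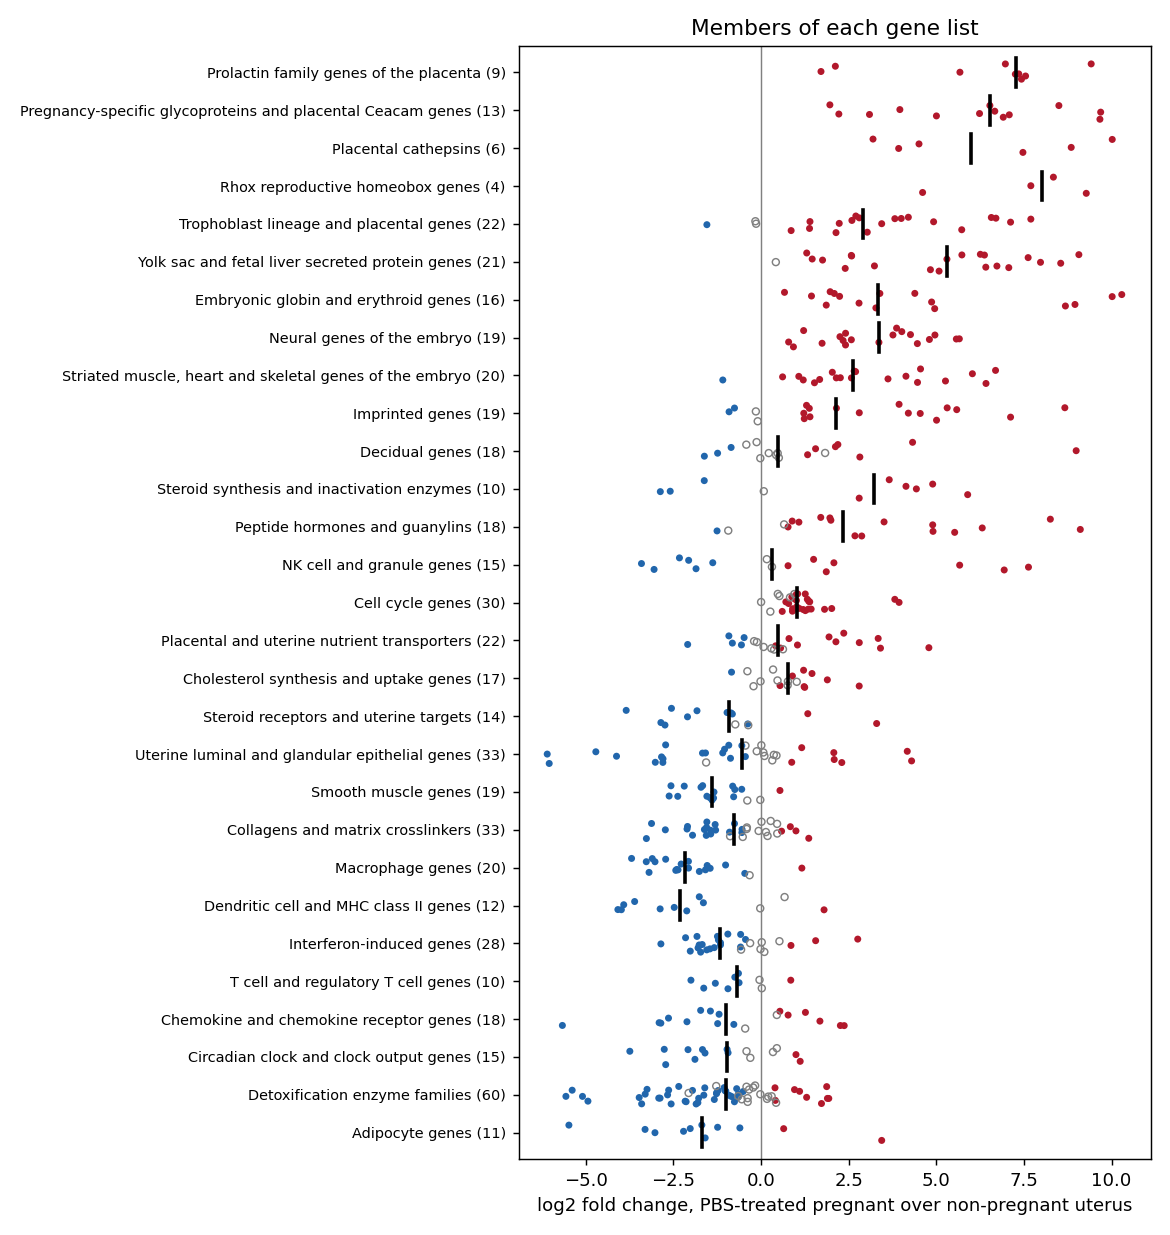
Each point is a measured gene, placed by its log2 fold change of PBS-treated pregnant over non-pregnant uterus in the gene list named at the left, with the number of measured genes in brackets. Filled red points were called higher, filled blue points lower and open grey points neither, and black bars are list medians, from 8.02 for Rhox genes down to -2.30 for dendritic cell and MHC class II genes.

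Genes of the yolk sac and the fetal liver, which secrete the plasma proteins of the embryo, were higher too: 20 of 21 measured genes rose and 0 fell, with a median of 5.30, or 5.13 with genes at their bound, and 1.09 to 5.45 over the settings. Of the 21 genes, 14 were above background on no non-pregnant array and could not be called lower. Apoa1, the main protein of high-density lipoprotein, had levels of 13.47, 13.28, 13.59, 13.60 and 13.46 on the PBS arrays, against 4.28, 4.48, 4.42, 4.32 and 4.56 on the non-pregnant arrays, and rose at least 314-fold. Afp, alpha-fetoprotein, rose at least 80.9-fold, Apoa2 by 251-fold and Fga, a fibrinogen chain, at least 49.8-fold. Ttr, a carrier of thyroid hormone and retinol, was at 13.46, 13.74, 13.37, 13.78 and 13.92 in the pregnant uterus and at 4.43, 7.04, 4.42, 4.39 and 5.23 in the non-pregnant uterus, where array 2 was the highest. Amn and Cubn, partners in the receptor that takes up proteins in yolk sac, rose by at least 35-fold and at least 3.51-fold. Serpina1b, an antitrypsin, was not called at the brighter of its 2 probes, at 0.42 (SE 0.24), and was called with the mean of both, at 3.61.

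Genes of embryonic blood included the largest rise in the comparison. 16 of 16 measured genes rose and 0 fell, with a median of 3.33, or 3.04 with genes at their bound, and 1.81 to 3.48 over the settings. Of the 16 genes, 8 were above background on no non-pregnant array and could not be called lower. Hbb-y, a beta-type globin of primitive red cells, was at 14.85, 14.67, 14.75, 14.89 and 14.77 on the PBS arrays, against 4.32, 4.35, 4.74, 4.67 and 4.39 on the non-pregnant arrays, and rose at least 777-fold. Hba-x, the alpha-type globin of the same cells, had levels of 14.50, 14.60, 14.64, 14.36 and 14.48 in the pregnant uterus and 4.78, 4.49, 4.38, 4.37 and 4.47 in the non-pregnant uterus, a rise of at least 644-fold. Hbb-bh1, another embryonic globin, rose by at least 323-fold. The 2 groups of arrays were tight and far apart for all 3 globins.

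Beyond globins, Slc4a1, the anion exchanger of the red cell membrane, rose by 8.68 (SE 0.16), Alas2, the first enzyme of haem synthesis in red cells, by 4.95 (SE 0.28), and Klf1, an erythroid transcription factor that binds CACCC sequences, by at least 14.8-fold. Tal1 and Nfe2, further erythroid regulators, rose by 2.80 and 3.28. Epor, the erythropoietin receptor, was higher by 1.97, and Fech, which inserts iron into haem, by 0.67, the smallest rise in the list and lost under 7 of 22 other processing settings.

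The sequences before the start sites of 3 of these genes show short motifs, among which those for GATA and Klf factors are known sites of erythroid factors. They are taken from RefSeq promoters of build GRCm38.p6 and end at the base before the start. Capitals mark AGATAA and TGATAA (both for GATA factors), CCACCC (factors of the Klf family) and CCAAT, on either strand. These letters were chosen after the sequences had been seen, and the matches to CCACCC in Alas2 overlap each other.
Hbb-y, chr7:103853208-103853457, minus strand: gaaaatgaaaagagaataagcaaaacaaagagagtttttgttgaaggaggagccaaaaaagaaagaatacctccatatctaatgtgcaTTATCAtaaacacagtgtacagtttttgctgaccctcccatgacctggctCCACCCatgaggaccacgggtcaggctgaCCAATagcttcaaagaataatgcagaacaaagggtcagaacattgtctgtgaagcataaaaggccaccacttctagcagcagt
Hba-x, chr11:32276350-32276599, plus strand: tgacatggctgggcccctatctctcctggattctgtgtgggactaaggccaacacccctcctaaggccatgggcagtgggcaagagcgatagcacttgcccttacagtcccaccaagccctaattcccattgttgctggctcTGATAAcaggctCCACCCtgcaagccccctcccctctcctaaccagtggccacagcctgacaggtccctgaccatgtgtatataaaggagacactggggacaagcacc
Alas2, chrX:150547167-150547416, plus strand: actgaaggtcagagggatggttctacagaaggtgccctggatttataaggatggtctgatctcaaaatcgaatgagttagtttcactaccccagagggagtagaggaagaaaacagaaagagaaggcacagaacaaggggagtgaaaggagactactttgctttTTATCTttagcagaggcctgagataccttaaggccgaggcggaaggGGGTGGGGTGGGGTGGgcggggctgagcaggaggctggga
A GATA motif stood within 250 bases of the start in 9 of the 11 measured erythroid genes with a promoter in the table (81.8%), against 16.6% of all 32851 promoters. CCACCC stood in 7 of them (63.6%, against 28.1% of all promoters) and CCAAT in 5 (45.5%, against 33.8%). A gene counted if any of its promoters held the motif, while the share over all promoters counts each by itself. A match is a description of the letters and was not tested as a binding site.

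Genes of the embryo's own organs were measured in the same tissue. 19 of 19 measured genes rose and 0 fell among neural genes (median 3.36, or 2.61 with genes at their bound, and 1.70 to 3.54 over the settings), and 19 of 20 measured genes rose and 1 fell among genes of striated muscle, heart and cartilage (median 2.62, or 1.93 with genes at their bound, and 1.46 to 2.71 over the settings). Above background on no non-pregnant array were 14 genes of the first list and 11 of the second, which could not be called lower. Isl1, a factor of motor and sensory neurons and of the early heart, was at 10.34, 10.37, 9.96, 10.15 and 9.97 on the PBS arrays, against 4.36, 4.59, 4.44, 4.54 and 4.58 on the non-pregnant arrays, and rose at least 31.5-fold. Elavl3, an RNA-binding protein of neurons, Mapt, the microtubule protein tau, and Dcx, doublecortin of migrating neurons, rose by at least 26.5-fold, at least 20.1-fold and at least 17.4-fold. Col2a1, the collagen of cartilage, rose by at least 59.6-fold, Actc1, cardiac actin, by at least 64.1-fold, and Myl2, a myosin light chain of the heart ventricle, by at least 44.5-fold. Acta1, skeletal muscle actin, was the exception and fell by 1.09 (SE 0.22).

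Families of transcription factors that pattern the embryo were gathered after values had been seen. Of 35 measured genes of the Zic, Sall, sine oculis, Dlx, Lhx, Irx, Otx, En, Nkx, Pou3f, Pou4f, Olig, Gbx and Pax families, 31 rose and 3 fell (31 and 1 with median scaling), with a median of 2.44, or 1.74 with genes at their bound, and 0.23 to 2.52 over the settings. Above background on no non-pregnant array were 27 of the 35, which entered through the pregnant arrays alone and could not be called lower. Irx3 rose by 5.92 (SE 0.15), Lhx1 by at least 26.9-fold and Zic1 by at least 17.3-fold. Dlx6, Sall1 and Six5 fell by 1.93, 0.61 and 0.56.

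Hox genes, which set position along the body axis and which the adult uterus also uses, had no common direction: 8 of 19 measured genes rose and 6 fell (8 and 4 with median scaling), with a median of -0.06 that changed sign between processing settings. Among all genes tested the shares were 26.7% higher and 27.2% lower. Hoxc9, Hoxa5 and Hoxd12 rose by 3.30 (SE 0.16), 2.82 (SE 0.16) and at least 2.64-fold. Hoxd9, Hoxb7 and Hoxd8 fell by 1.91, 1.71 and 1.69. Hoxa10, needed in the uterus for implantation, was not called (95% interval -1.03 to 0.19), while its neighbour Hoxa11 fell by 1.24, a call lost under 9 of 22 other settings.

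Imprinted genes, expressed from the copy of a single parent and many of them regulators of fetal growth, mostly rose: 15 of 19 measured genes rose and 2 fell, with a median of 2.15, and 1.27 to 2.37 over the settings. Dlk1, a membrane protein related to Notch ligands, was at 13.91, 13.58, 13.77, 13.81 and 13.69 in the pregnant uterus and at 4.94, 5.53, 4.42, 5.47 and 5.05 in the non-pregnant uterus, a 407-fold rise. Peg3 and Nnat rose by 5.31 (SE 0.17) and 5.01 (SE 0.25), and Cdkn1c, an inhibitor of the cell cycle, by 3.94 (SE 0.22). Cd81 and Dcn fell by 0.91 and 0.76.

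The 2 insulin-like growth factors moved in opposite directions. Igf2, imprinted and the fetal factor, was at 14.80, 14.81, 14.87, 14.93 and 14.59 in the pregnant uterus, against 9.33, 9.32, 8.97, 9.04 and 9.42 in the non-pregnant uterus (47.9-fold higher, adjusted p = 2.32e-12). Igf1, which oestrogen induces in the uterus, was at 7.63, 7.42, 7.47, 7.60 and 7.66 in the pregnant uterus, against 11.55, 11.17, 11.62, 11.56 and 11.10 in the non-pregnant uterus (14.4-fold lower, adjusted p = 1.28e-10). Every PBS array was above every non-pregnant array for Igf2 and below every one for Igf1. Igf2bp3 and Igf2bp1, RNA-binding proteins of fetal tissue, rose by at least 61.3-fold and at least 33.9-fold, and Igfbp2 by 5.05, while Igfbp7, Igfbp6 and Igfbp4 fell by 2.19, 1.51 and 1.29. Over the whole list 7 of 15 measured genes rose and 6 fell (7 and 4 with median scaling), and its median of 0.55 turned to -0.51 among genes detected on all 10 arrays.

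**Figure D3:**
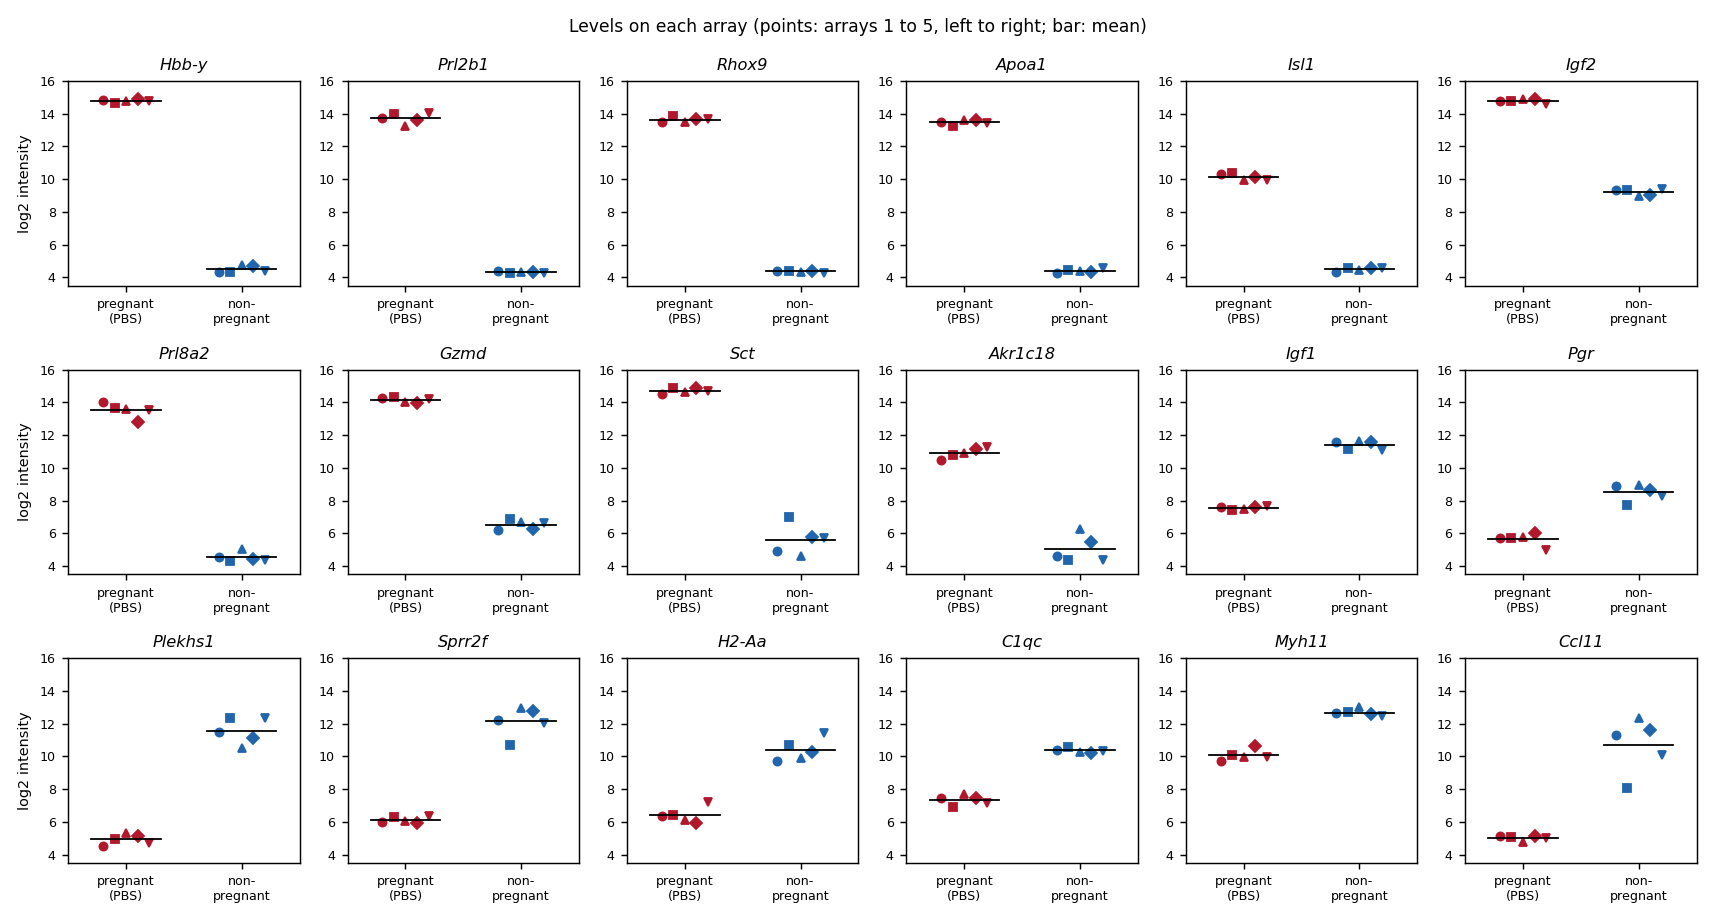
Log2 intensity (vertical axis) of 18 genes on each array of PBS-treated pregnant uterus (red, left) and non-pregnant uterus (blue, right), with arrays 1 to 5 from left to right and the group mean as a bar. No gene shown has overlapping groups: the first 10 lie higher in pregnant uterus, up to the embryonic globin Hbb-y, and the last 8, from Igf1 to Ccl11, lie lower.

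Whether each level above comes from conceptus or mother cannot be told from these arrays, and the share of RNA that came from the conceptus was not measured. In this bulk tissue a lower level of a maternal gene, fewer cells of its type and a smaller maternal share of the RNA therefore cannot be told apart.

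Decidual genes, which mark the stromal cells that have turned into decidua, were mixed: 7 of 18 measured genes rose and 3 fell (8 and 1 with median scaling), with a median of 0.49, and 0.28 to 0.83 over the settings. Prl8a2, a decidual member of the prolactin family, was at 14.02, 13.65, 13.62, 12.78 and 13.55 in the pregnant and 4.55, 4.30, 5.04, 4.40 and 4.37 in the non-pregnant uterus, at least 324-fold higher. Aoc1, which breaks down histamine and polyamines, lay at 12.75, 12.78, 12.95, 12.76 and 12.58 in the pregnant uterus. On the non-pregnant arrays it lay at 8.91, 6.46, 10.78, 9.92 and 6.14, a wide spread that still left every PBS array higher (4.32 (SE 0.75), adjusted p = 0.000337). Gatm, of creatine synthesis, Cryab, a small heat shock protein, Fst, the activin-binding protein follistatin, and Htra3, a serine protease, rose by at least 3.86-fold, 2.19, 2.12 and 1.56. Without non-pregnant array 4 the difference of Fst was 1.7 and was not called. Hand2, a progesterone-induced factor of the stroma, fell by 1.62 (SE 0.31). Alpl, alkaline phosphatase, and Bmp8a, a growth factor of the BMP family, were not called at 0.51 (SE 0.74) and 1.83 (SE 0.76), with non-pregnant arrays from 5.63 to 10.01 and from 4.37 to 8.74.

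Receptors of steroid hormones and their uterine targets were lower: 2 of 14 measured genes rose and 10 fell (2 and 6 with median scaling), with a median of -0.91. Pgr, the progesterone receptor, was at 5.70, 5.73, 5.77, 6.01 and 4.97 in the pregnant uterus, against 8.87, 7.74, 8.92, 8.65 and 8.28 in the non-pregnant uterus, a difference of -2.86 (SE 0.25) (adjusted p = 7.16e-07). Esr1, oestrogen receptor alpha, differed by -2.10 (SE 0.29), and Greb1, an oestrogen-induced partner of that receptor, by -2.74 (SE 0.39). Msx1, a homeobox gene of the receptive uterus, differed by -2.55 (SE 0.32) and Ihh, a hedgehog ligand that progesterone induces in the epithelium, by -1.83 (SE 0.73), a call lost under 13 of 22 other settings. Against this direction, Cited2, a transcriptional co-regulator, rose by 3.30 (SE 0.23) and Fkbp5, a chaperone induced by steroid receptors, by 1.33 (SE 0.21).

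Enzymes that make or inactivate steroids had larger differences: 6 of 10 measured genes rose and 3 fell, with a median of 3.23, or 2.92 with genes at their bound, and 0.08 to 3.38 over the settings. Akr1c18, which inactivates progesterone, was at 10.50, 10.80, 10.90, 11.18 and 11.25 in the pregnant uterus, against 4.64, 4.40, 6.28, 5.46 and 4.38 in the non-pregnant uterus, where arrays 3 and 4 were the highest. Cyp17a1 and Cyp11a1, which make androgens and pregnenolone, rose by at least 17.3-fold and at least 8.24-fold. Hsd17b2, which inactivates oestradiol, and Hsd11b1, which activates glucocorticoid, rose by 4.43 (SE 0.27) and 4.14 (SE 0.17), and Hsd17b7, of cholesterol and oestradiol synthesis, by 2.80 (SE 0.39). Hsd11b2, which inactivates glucocorticoid, and Cyp27a1, a sterol hydroxylase, fell by 2.59 and 2.87.

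Genes of peptide hormones formed a group noticed in the data. Of 18 measured genes, 15 rose and 1 fell, with a median of 2.34, or 1.61 with genes at their bound, and 0.77 to 2.46 over the settings. Above background on no non-pregnant array were 9 of the 18, which could not be called lower. Sct, the hormone secretin, was at 14.51, 14.89, 14.61, 14.85 and 14.69 in the pregnant uterus, against 4.93, 6.998, 4.62, 5.77 and 5.69 in the non-pregnant uterus, where array 2 was the highest. Guca2b and Guca2a, which encode uroguanylin and guanylin, peptides that activate guanylate cyclase in the gut, rose by 8.25 (SE 0.29) and at least 26.7-fold. Ghrh, growth hormone-releasing hormone, rose by 6.31 (SE 0.40), Nppa, atrial natriuretic peptide, by at least 21.2-fold and Npy, neuropeptide Y, by at least 18-fold. Edn1, the vessel-constricting peptide endothelin, fell by 1.25.

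Other families singled out for their size were the kallikreins and the Serpinb9 protease inhibitors. Klk1 and Klk1b5, kallikrein proteases, rose by 6.02 (SE 0.25) and 5.47 (SE 0.23), while Klk1b21 and Klk1b24 were not called. Serpinb9g, of a family that inhibits granzyme B, was at 12.92, 12.87, 12.42, 11.88 and 12.50 in the pregnant uterus and 4.28, 4.38, 4.31, 4.32 and 4.38 in the non-pregnant uterus, and its relatives Serpinb9e and Serpinb9c rose by at least 25-fold and at least 3.27-fold. Nccrp1, named for a receptor of cytotoxic cells in fish, rose by 5.19 (SE 0.80) although its non-pregnant levels spread over 5.91, 4.49, 9.65, 7.74 and 4.73.

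NK cell genes moved both ways: 7 of 15 measured genes rose and 6 fell, with a median of 0.31 that turned to -1.85 among genes detected on all 10 arrays. Of the 7 that rose, 5 encode granule proteins, and Klrg1 and Cd244a, receptors on the NK cell surface, rose by 2.08 and at least 1.28-fold. Gzmd, a granzyme, was at 14.26, 14.33, 14.03, 13.94 and 14.21 in the pregnant uterus and 6.18, 6.85, 6.67, 6.26 and 6.66 in the non-pregnant uterus, and Gzmg, Gzme and Gzmf rose by at least 70.4-fold, at least 31-fold and at least 2.18-fold. Prf1, the pore-forming perforin, rose by 1.5 (SE 0.16). Falls were found for Klrd1 and Klre1, receptors of NK cells, at -2.33 and -2.06, for Nkg7, a granule membrane protein, at -1.85, and for Xcl1, a chemokine of NK cells, which was at least 5.8-fold lower. Il15, the cytokine that NK cells depend on, was at 7.27, 6.998, 6.95, 6.25 and 6.62 in the pregnant uterus, against 10.89, 9.37, 10.51, 10.51 and 9.85 in the non-pregnant uterus. Il2rb, a chain of its receptor, was not called (95% interval -0.14 to 0.76).

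Epithelial genes of the uterine lumen and glands were lower more often than higher: 7 of 33 measured genes rose and 17 fell, with a median of -0.55, and -0.92 to -0.35 over the settings. Sprr2f, an oestrogen-induced component of the cornified envelope, was at 5.96, 6.31, 6.06, 5.90 and 6.33 in the pregnant uterus, against 12.24, 10.71, 12.98, 12.79 and 12.06 in the non-pregnant uterus (65.9-fold lower). Fxyd4, a regulator of the sodium pump, fell by 6.10 (SE 0.51). Ltf, lactoferrin, and Muc1, the mucin of the apical surface, fell by 4.12 and 1.09 (the call of Muc1 was lost under 9 of 22 other settings), and Wnt7a, a Wnt ligand of the epithelium, by 2.80. Ovgp1, which is also the oviductal glycoprotein, fell by 4.71; it stood in a list of ovary and oviduct genes of which 4 were measured and 2 fell, and its levels were 5.33 to 7.66 in the pregnant and 9.37 to 11.96 in the non-pregnant uterus. Whether oviduct was taken with some samples was not tested. Among the genes that rose were Spink1, a protease inhibitor, at 4.30 (SE 0.70), Aqp8, a water channel, at 4.17 (SE 0.31), and the simple keratins Krt18 and Krt8 at 2.08 (SE 0.13) and 1.16 (SE 0.14). The trypsin-like Prss29 and Prss28, proteases of uterine glands, rose by 2.30 and 0.88.

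The largest fall outside the lists was that of Plekhs1, a protein with a pleckstrin homology domain, at 4.55, 4.97, 5.31, 5.15 and 4.69 in the pregnant uterus, against 11.47, 12.36, 10.51, 11.11 and 12.33 in the non-pregnant uterus (98.4-fold lower). P2ry14, the receptor of UDP-glucose, was 80.4-fold lower. For both genes every pregnant array lay below every non-pregnant array.

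Smooth muscle genes, which mark the myometrium and vessel walls, were lower: 1 of 19 measured genes rose and 16 fell, with a median of -1.40. Myh11, smooth muscle myosin heavy chain, was at 9.69, 10.06, 9.94, 10.65 and 9.97 in the pregnant uterus, against 12.62, 12.69, 13.02, 12.62 and 12.46 in the non-pregnant uterus, a 6.15-fold fall. Myl9 and Mylk, its light chain and the kinase that activates it, fell by 2.57 and 1.71, and Lmod1, leiomodin, by 2.37. Acta2, smooth muscle actin, fell by 0.55 at the brightest of its 4 probes (the others reached -2.73), while Actg2, the actin of visceral muscle, and Des, desmin, were not called (95% intervals -0.85 to 0.07 and -0.35 to 0.31). Itga8, an integrin chain, rose by 0.54 (SE 0.21), a call lost under 10 of 22 other settings. Of the genes of contraction and prostaglandins, 0 of 9 measured genes rose and 5 fell: Rxfp1, the relaxin receptor, fell by 4.27 (SE 0.28) and Ptgis, prostacyclin synthase, by 1.5 (SE 0.17), and Gja1, the gap junction protein connexin 43, was not called at 0.48 (SE 0.22).

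Collagens, the enzymes that crosslink them and other matrix proteins, such as Fn1, Lum and Dcn, were lower on balance: 4 of 33 measured genes rose and 18 fell, with a median of -0.76. Col6a2 and Col6a1, chains of the microfibrillar type VI collagen, fell by 3.27 (SE 0.27) and 2.73 (SE 0.18), and the fibrillar Col3a1, Col1a2 and Col1a1 differed by -1.61, -1.54 and -1.43. Lum, lumican, fell by 2.10. Fn1, fibronectin, and Col8a1 rose by 1.00 (SE 0.20) and 1.36 (SE 0.22). Basement membrane collagens Col4a1 and Col4a2 were not called (95% intervals 0.01 to 0.92 and -0.21 to 0.59). Of matrix proteases and their inhibitors 3 of 19 measured genes rose and 11 fell, among them Timp2 at -1.59 (SE 0.13), Mmp2 at -1.55 (SE 0.21) and Adam12 at -2.20 (SE 0.28).

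Macrophage genes were lower, as 1 of 20 measured genes rose and 18 fell, with a median of -2.17, and -2.32 to -1.40 over the settings. C1qc, a chain of complement C1q that tissue macrophages make, was at 7.49, 6.94, 7.69, 7.48 and 7.13 in the pregnant uterus, against 10.40, 10.58, 10.29, 10.21 and 10.36 in the non-pregnant uterus, an 8.13-fold fall. Lyz2, lysozyme, fell by 3.69 (SE 0.34), Cd14, a receptor of bacterial lipopolysaccharide, by 3.10 (SE 0.30) and Adgre1, the F4/80 antigen, by 2.28 (SE 0.27). Csf1r, the receptor of the macrophage growth factor and also a gene of trophoblast, was the gene that rose, by 1.17 (SE 0.26).

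Genes of antigen presentation by MHC class II and of dendritic cells followed: 1 of 12 measured genes rose and 9 fell, with a median of -2.30, or -2.03 with genes at their bound, and -3.60 to -1.16 over the settings. Of the 12 genes, 2 were above background on no pregnant array and could not be called higher. H2-Aa, an MHC class II chain, was at 6.34, 6.40, 6.11, 5.93 and 7.22 in the pregnant uterus, against 9.71, 10.68, 9.87, 10.27 and 11.41 in the non-pregnant uterus, so that every pregnant array was lower. Cd74, the invariant chain, fell by 4.08 (SE 0.23) and Ciita, the switch for class II genes, by at least 2.1-fold. Batf3, a factor of dendritic cells, rose by 1.80 (SE 0.20).

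Among lymphocyte genes, 1 of 10 measured genes rose and 7 fell for T cells (median -0.69, or -0.63 with genes at their bound, and -0.84 to -0.25 over the settings), with Cd3e and Cd3g, chains of the T cell receptor complex, at least 1.69-fold and 2.11-fold lower. Of the 10 genes, 3 were above background on no pregnant array and could not be called higher. Foxp3, the factor of regulatory T cells, was at 9.44 ± 0.14 in the pregnant and 9.42 ± 0.16 in the non-pregnant uterus (SD, n = 5 each), with a 95% interval of -0.25 to 0.30 for the difference. Cd3e and Cd3g were above background on no pregnant array. Whether the Foxp3 signal came from regulatory T cells was not tested, and the number of these cells was not measured. All 4 measured B cell genes fell, with Blnk at -1.38 and Mzb1 at -0.42, and the fall of Mzb1 was lost under 8 of 22 other settings. Of 5 genes of mast cells and eosinophils 4 fell, with Mcpt4, a mast cell protease, at least 2.35-fold lower, while Kit, the stem cell factor receptor, rose by 2.21 (SE 0.25). Above background on no pregnant array were 1 of the 4 B cell genes and 1 of these 5, which could not be called higher.

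Neutrophil genes moved both ways: 4 of 8 measured genes rose and 3 fell, with a median of 0.20, or -0.16 with genes at their bound. Its sign changed between settings. S100a8, calgranulin A, was at 12.27, 11.97, 12.13, 11.68 and 11.98 in the pregnant uterus, against 5.47, 6.81, 6.24, 5.94 and 7.43 in the non-pregnant uterus. Retnlg, a secreted resistin-like protein of myeloid cells, was at 4.40, 4.39, 4.39, 4.43 and 4.41 in the pregnant uterus and 10.56, 10.61, 10.80, 11.12 and 11.82 in the non-pregnant uterus, at least 58.5-fold lower. Il1r2, the decoy receptor of interleukin-1, rose by 3.49 (SE 0.38), and Mpo and Cxcr2, of neutrophil granules and their migration, by 1.83 and at least 2.16-fold.

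Of chemokines and their receptors 6 of 18 measured genes rose and 10 fell, with a median of -0.98, or -0.67 with genes at their bound, and -1.22 to -0.35 over the settings. Of the 18 genes, 2 were above background on no pregnant array and could not be called higher. Ccl11, eotaxin, was at 5.14, 5.07, 4.80, 5.13 and 5.02 in the pregnant uterus, against 11.33, 8.09, 12.36, 11.62 and 10.08 in the non-pregnant uterus, where array 2 was the lowest. Ccl5 and Cxcl16, which attract T cells, fell by 2.91 (SE 0.17) and 2.86 (SE 0.20), and Cxcl1 and Ccl27a, which attract neutrophils and skin T cells, rose by at least 3.43-fold and 2.37 (SE 0.24). Interferon-induced genes were lower, as 3 of 28 measured genes rose and 19 fell, with a median of -1.16, and -1.18 to -0.55 over the settings. Psmb8 and Psmb9, subunits of the immunoproteasome, fell by 2.86 (SE 0.18) and 2.15 (SE 0.16), and Irf1 by 1.76 (SE 0.14). Ido1, which breaks down tryptophan, and Rsad2 rose by 2.76 (SE 0.15) and 1.56 (SE 0.19). For complement and coagulation 3 of 10 measured genes rose and 4 fell (3 and 2 with median scaling), with a median of -0.08, of changing sign between settings, with Tfpi, the tissue factor inhibitor, higher by 3.15 (SE 0.28) and Procr, the protein C receptor, by at least 2.8-fold. The shares over all genes tested were 26.7% higher and 27.2% lower.

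Vessel genes had no common direction: 8 of 25 measured genes rose and 11 fell (7 and 6 with median scaling), with a median of -0.36, and -0.48 to -0.14 over the settings. The shares of 32% higher and 44% lower stand beside 26.7% and 27.2% of all genes tested. Angpt2, which loosens vessels for growth, rose by 3.22 (SE 0.13), Cdh5, the junction protein of endothelium, by 2.09 (SE 0.18) and Flt1, a receptor of vascular growth factor, by 1.35 (SE 0.11). Sox17, Emcn and Vwf, further genes of endothelium, fell by 2.86, 1.26 and 1.15. Pecam1, found in all endothelium, was not called (95% interval -0.16 to 0.81). Stab1 rose by 1.87 at the probe used, but its other probes reached -1.37 and the call was lost with the mean of its probes (0.05), so its direction is uncertain.

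Cell cycle genes were higher without exception among those called: 24 of 30 measured genes rose and 0 fell, with a median of 1.02. The list also holds inhibitors of the cycle, and its largest rise was that of the inhibitor Cdkn1c, at 3.94. Rrm2, a subunit of the enzyme that makes DNA building blocks, rose by 3.82 (SE 0.24) and Ccne1, cyclin E, by 2.02 (SE 0.19). Cdt1 and Cdc6, which license replication, rose by 1.81 and 1.43. Ccnd1, cyclin D1, was not called, at 0.00 (SE 0.17).

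Among genes of sugar metabolism and low oxygen 11 of 25 measured genes rose and 4 fell (10 and 1 with median scaling), with a median of 0.54, and 0.30 to 0.68 over the settings. Slc2a1, the glucose transporter GLUT1, was at 13.22, 13.09, 13.19, 13.17 and 12.98 in the pregnant uterus, against 9.71, 9.59, 10.53, 9.96 and 9.15 in the non-pregnant uterus, a 10.1-fold rise. Car12, a carbonic anhydrase, fell by 4.13 (SE 0.41), and Ldha, lactate dehydrogenase, was not called (95% interval -0.24 to 0.36). Among nutrient transporters 11 of 22 measured genes rose and 5 fell (10 and 2 with median scaling), with a median of 0.49, or 0.40 with genes at their bound, and 0.29 to 0.65 over the settings. Fabp3, a fatty acid-binding protein, rose by 4.79 (SE 0.16), Folr1, a folate receptor, by 3.41 (SE 0.18), Slc38a4, an imprinted amino acid transporter, by 2.80 (SE 0.36) and Tfrc, the transferrin receptor, by 2.36 (SE 0.22). Of cholesterol genes 8 of 17 measured genes rose and 1 fell (median 0.77), with Sqle and Lss, consecutive enzymes of the pathway, at 1.89 (SE 0.48) and 1.45 (SE 0.36).

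Among subunits of oxidative phosphorylation 2 of 61 measured genes rose and 20 fell (2 and 4 with median scaling), with a median of -0.19, and -0.26 to -0.08 over the settings, and Cox8b, a form of the heart and of brown fat, was at least 2.11-fold lower. Of mitochondrial ribosomal proteins 2 of 64 measured genes rose and 15 fell (0 and 2 with median scaling), with a median of -0.12 that turned to 0.04 with median scaling. Over all genes tested 26.7% were called higher and 27.2% lower. With quantile normalization, falls in these mitochondrial lists were thus about as frequent as among all genes, while rises were rarer. With median scaling 2343 of all 10168 genes were higher and 1305 lower, and falls in both lists were then rarer too. Among cytosolic ribosomal proteins 0 of 16 measured genes rose and 12 fell (0 and 3 with median scaling), with a median of -0.43, among them Rps3a1 at -1.28 (SE 0.33) and Rplp0 at -0.85 (SE 0.21). With median scaling the call of Rplp0 was lost, too.

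Enzymes that detoxify alcohols, aldehydes and drugs were gathered after values had been seen. Of 60 measured genes of the Cyp1, Cyp2, Cyp4, Gst, Sult, Adh, Aldh, Ces, Cbr, Ephx, Aox and Ugt families 9 rose and 36 fell, with a median of -1.01, and -1.02 to -0.66 over the settings. Other Cyp genes, such as Cyp11a1, Cyp17a1 and Cyp27a1 above, are not in this list. Of the 60 genes, 5 were above background on no pregnant array and could not be called higher. Cbr2, a carbonyl reductase, was at 5.29, 5.88, 5.84, 6.65 and 5.80 in the pregnant uterus, against 11.11, 11.86, 11.95, 11.60 and 10.76 in the non-pregnant uterus (47.3-fold lower). Cyp2e1, which oxidises ethanol, Adh1, an alcohol dehydrogenase that also acts on retinol, and Ces1d, a carboxylesterase, fell by at least 28.7-fold, 5.09 and 4.94. Aldh1a1 and Aldh1a2, which make retinoic acid, fell by 2.56 (SE 0.39) and 2.16 (SE 0.45), while their relative Aldh1a3 rose by 1.93 (SE 0.30).

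Adipocyte genes differed both between the groups and between non-pregnant arrays: 2 of 11 measured genes rose and 9 fell, with a median of -1.69. Of the 11 genes, 2 were above background on no pregnant array and could not be called higher. Adipoq, the fat hormone adiponectin, was at 4.72, 5.14, 5.22, 5.75 and 4.31 in the pregnant uterus, against 9.20, 12.17, 9.66, 11.22 and 10.28 in the non-pregnant uterus, where arrays 2 and 4 were the highest. Averaged over its members and set against the non-pregnant mean, the list stood at -1.72 to -1.30 in the PBS group and -0.64 to 1.05 in the non-pregnant group. Cyp2e1, Adh1 and Ces1d, named above, are also abundant in fat, and the part of fat tissue in their falls was not tested. Pparg, a regulator of fat cells that trophoblast uses too, rose by 3.44 (SE 0.29). Of 6 mesothelial genes, which mark the outer lining, 2 rose and 3 fell (median -0.57, or -0.44 with genes at their bound, and -0.60 to -0.19 over the settings).

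Signalling genes of the Wnt, BMP and hedgehog pathways were split, as 11 of 31 measured genes rose and 11 fell, and their median (0.42, or 0.33 with genes at their bound) turned to -0.59 among genes detected on all 10 arrays. Sfrp1, a secreted Wnt inhibitor, and Inhba, the activin chain, rose by 2.92 (SE 0.28) and 2.87 (SE 0.27). Wnt5a, Wnt16 and Fzd6, ligands and a receptor of the pathway, fell by 2.35 (SE 0.18), at least 2.9-fold and 2.17 (SE 0.27), and Axin2, a common target of Wnt signalling, by 1.01 (SE 0.16). Among enzymes of arginine, polyamine, histamine and tryptophan metabolism 4 of 9 rose and 5 fell, with Ass1, which makes the precursor of arginine, at 1.95 (SE 0.57) and Arg2, an arginase, at -1.82 (SE 0.32). Among immediate early and heat shock genes 4 of 18 measured genes rose and 5 fell (4 and 2 with median scaling), with Hspa1a at -1.84 (SE 0.18) and Fos not called at 0.43 (SE 0.26) (median -0.03, of changing sign between settings). Over all genes tested 26.7% were called higher and 27.2% lower, near the shares of this last list. The Wnt, BMP and hedgehog list lay somewhat above both shares.

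Genes of the circadian clock, noticed in the data, were mostly lower in the pregnant uterus. Of 15 measured genes 9 fell and 2 rose, with a median of -0.97. Dbp, a transcription factor whose level follows the clock, was at 8.14, 8.75, 8.41, 9.39 and 8.49 in the pregnant uterus, against 12.22, 12.38, 11.92, 12.10 and 13.26 in the non-pregnant uterus (13.4-fold lower, adjusted p = 1.38e-07). Per2, a repressor in the core loop, was at 8.13, 8.18, 7.81, 7.90 and 7.97 in the pregnant uterus, against 11.36, 10.04, 10.80, 10.63 and 10.75 in the non-pregnant uterus. Nr1d2 and Nr1d1, which encode the Rev-erb receptors, fell by 2.76 (SE 0.34) and 2.08 (SE 0.22). Per3, Tef, Ciart and Per1 fell by at least 2.75-fold, 1.67, 1.60 and 0.97, and Clock, an activator of the loop, by 0.94, of which Per1 and Clock were not called with median scaling. Arntl, its partner, was not called (log2 fold change 0.45 (SE 0.22), 95% interval -0.02 to 0.92), and the kinases Csnk1d and Csnk1e rose by 1.12 and 1.00. The pregnant arrays lay below the non-pregnant arrays without overlap for each of the 9 that fell. These 9 were already picked as called, and of all genes tested 41% had groups without overlap. The labels do not give the hour at which tissue was collected.

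**Figure D4:**
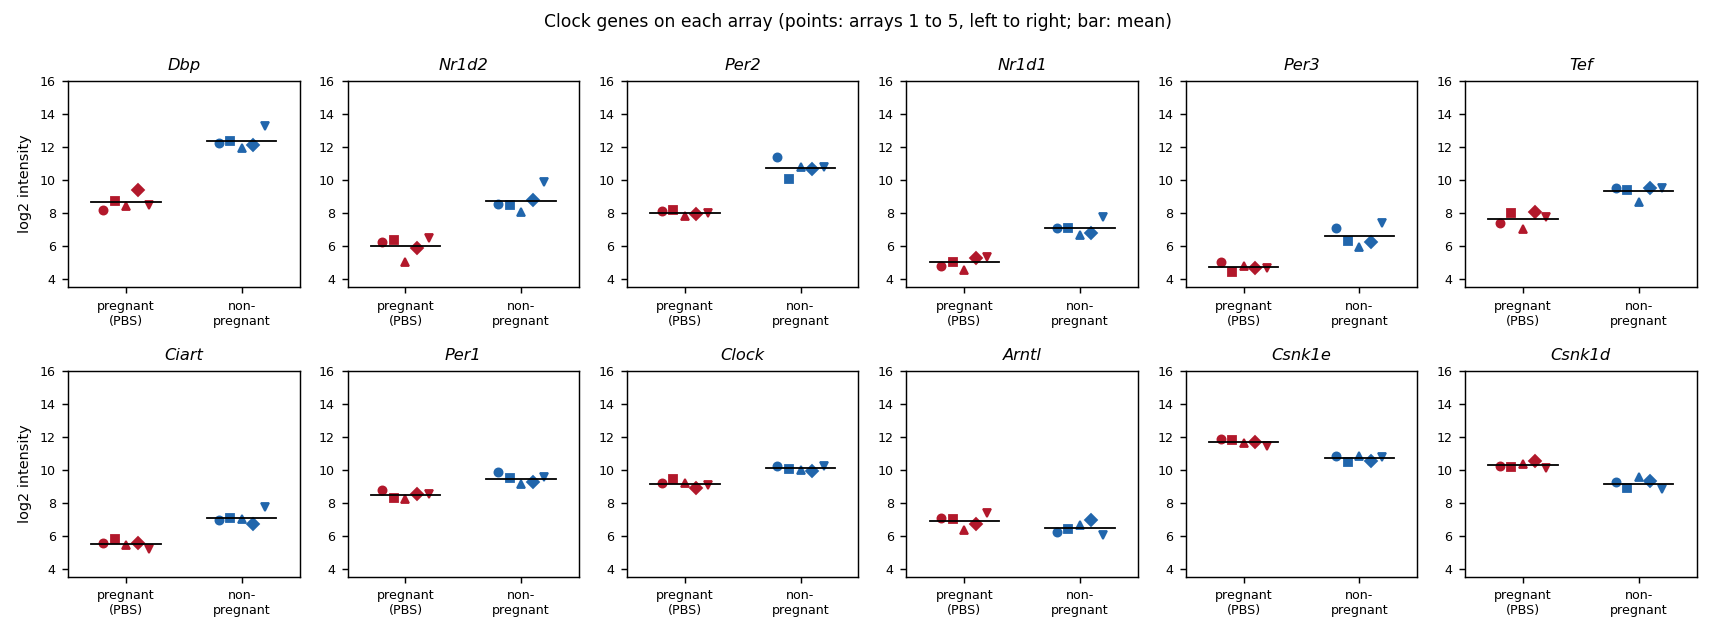
Log2 intensity (vertical axis) of 12 clock genes on each array of PBS-treated pregnant uterus (red, left) and non-pregnant uterus (blue, right), with arrays 1 to 5 from left to right and the group mean as a bar. Dbp to Clock lie lower in pregnant uterus without overlap, Arntl overlaps, and Csnk1e and Csnk1d lie higher.

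Clock proteins act on the E-box CACGTG, bound by Clock and Arntl, and on the D-box TTATGTAA, bound by Dbp and Tef. The RefSeq sequences (build GRCm38.p6) before the start sites of 3 of the genes that fell show these in capitals, on either strand, up to the base before the start. For Per1, the first of 2 listed start sites is shown. These letters, too, were chosen after the sequences had been seen.
Ciart, chr3:95882229-95882478, minus strand: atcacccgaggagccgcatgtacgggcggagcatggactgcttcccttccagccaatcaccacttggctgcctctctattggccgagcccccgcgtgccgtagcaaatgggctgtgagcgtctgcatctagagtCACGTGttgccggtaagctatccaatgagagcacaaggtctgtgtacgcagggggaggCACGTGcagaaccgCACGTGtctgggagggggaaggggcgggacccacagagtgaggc
Per1, chr11:69098699-69098948, plus strand: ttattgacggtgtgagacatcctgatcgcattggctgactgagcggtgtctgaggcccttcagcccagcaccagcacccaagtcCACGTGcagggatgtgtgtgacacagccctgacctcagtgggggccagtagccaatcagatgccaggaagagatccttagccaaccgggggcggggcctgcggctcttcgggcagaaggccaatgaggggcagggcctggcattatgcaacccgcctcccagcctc
Per3, chr4:151044666-151044915, minus strand: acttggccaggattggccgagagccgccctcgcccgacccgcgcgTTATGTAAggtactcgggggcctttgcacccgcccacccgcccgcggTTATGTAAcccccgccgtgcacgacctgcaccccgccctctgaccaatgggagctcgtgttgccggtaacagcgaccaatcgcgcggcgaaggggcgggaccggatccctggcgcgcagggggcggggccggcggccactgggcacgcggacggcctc
Ciart held 3 E-boxes and Per3 held 2 D-boxes. The E-box stood within 250 bases of the start in 3 of the 12 measured clock genes with a promoter in the table (25%, against 6.02% of all promoters), and the D-box in 1 (8.33%, against 0.819%). Here too a gene counted if any of its promoters held the motif, while the share over all promoters counts each by itself.

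The non-pregnant arrays differed from each other in a set of genes in which the pregnant arrays did not. The SD of a gene had a median of 0.246 among PBS arrays and 0.253 among non-pregnant arrays, but 4 genes in the PBS group and 244 in the non-pregnant group had an SD over 1 (log2). Of these 244 genes, 62 were called higher and 76 lower in the pregnant uterus, and for 127 the pregnant mean lay inside the non-pregnant range.

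Lcn2, a siderophore-binding protein of epithelium and neutrophils, had levels of 10.57, 9.96, 11.07, 11.08 and 10.24 in the pregnant uterus and 13.77, 9.86, 14.31, 13.83 and 8.99 in the non-pregnant uterus, where arrays 1, 3 and 4 were high. Krt14, a keratin of layered epithelium, was at 9.20, 9.33, 9.56, 9.89 and 9.82 in the pregnant and 13.04, 9.43, 14.56, 14.22 and 9.68 in the non-pregnant uterus, with the same 3 non-pregnant arrays high, and its fall was lost under 6 of 22 other settings. Krt13 and Padi1, further genes of layered or secretory epithelium, were also highest on these arrays and fell by at least 14.8-fold and 2.80 (SE 0.72). Over all 14 measured keratins, a list made after values had been seen, 3 rose and 6 fell (median -0.99), and their average, set against the non-pregnant mean, stood at -0.95 to -0.68 in the PBS group and -0.96 to 1.01 in the non-pregnant group. The labels do not give the stage of the oestrous cycle.

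The reverse order was found for other genes. Spink8, a protease inhibitor, lay at 6.61, 7.12, 6.56, 7.08 and 7.25 in the pregnant uterus and at 5.06, 10.42, 4.35, 5.61 and 9.42 in the non-pregnant uterus, where arrays 2 and 5 were high. Pla2g10, a secreted phospholipase, was at 5.44, 5.05, 5.16, 5.35 and 5.70 in the pregnant and 5.13, 11.24, 4.53, 4.83 and 8.57 in the non-pregnant uterus, and Gstm7, a glutathione transferase, was at 6.12, 6.17, 7.21, 6.63 and 6.63 in the pregnant and 7.39, 11.15, 6.43, 6.97 and 11.14 in the non-pregnant uterus. The progesterone-induced Ihh, described above, had 5.53, 5.01, 4.99, 4.74 and 4.61 on PBS arrays 1 to 5 and 6.58, 8.78, 4.67, 5.13 and 8.85 on non-pregnant arrays 1 to 5, so that non-pregnant arrays 3 and 4 were within the range of the pregnant arrays. Fst lay at 8.76, 8.54, 9.41, 9.08 and 8.40 in the pregnant uterus and at 6.96, 8.78, 4.59, 5.02 and 8.23 in the non-pregnant uterus, where array 2 was within the range of the pregnant arrays and array 5 just below it.

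**Figure D5:**
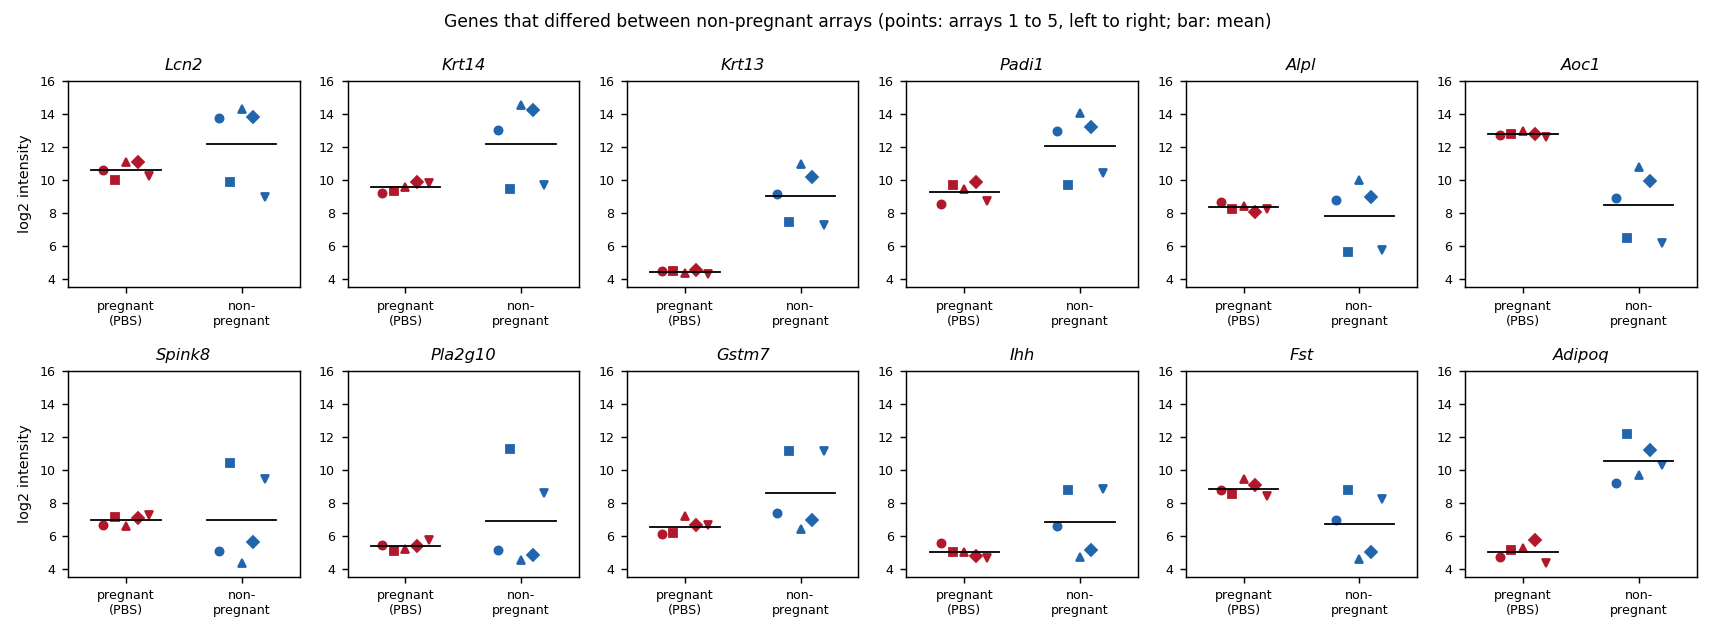
Log2 intensity (vertical axis) of 12 genes with a large spread between non-pregnant arrays, on each array of PBS-treated pregnant uterus (red, left) and non-pregnant uterus (blue, right), with arrays 1 to 5 from left to right and the group mean as a bar. Lcn2 to Aoc1 are high on non-pregnant arrays 1, 3 and 4, Spink8 to Fst on arrays 2 and 5, and Adipoq on arrays 2 and 4, while the pregnant arrays stay close together.

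The genes with the narrowest intervals around no difference came from general cell functions. Sod1, which removes superoxide, was at 12.55 ± 0.06 in the pregnant and 12.55 ± 0.08 in the non-pregnant uterus (SD, n = 5 each), with a 95% interval of -0.23 to 0.22 for the log2 difference. Dnaja3, a mitochondrial chaperone, and Cox6b1, a subunit of cytochrome c oxidase, had intervals of -0.22 to 0.23 and -0.24 to 0.25. In all, 2502 genes (24.6%) had an interval within 1.5-fold either way.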

How the data were processed

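The authors deposited a scanner table with 1 average intensity and 1 detection p-value per probe and array, not normalized per the file headers, and a series matrix of log2 values for 16948 of the 45281 probes, whose normalization is not given in the sources used here, used as an alternative. In R 4.3.3, limma 3.58.1 neqc over all 14 arrays corrected the intensities (normexp background from the detection p-values, offset 16), quantile normalised them and took log2. A probe was kept where 5 or more of the 10 arrays had a detection p under 0.01 (19410 probes). Names came from the platform annotation, which gave 1 symbol to 15469 probes and left 29807 unnamed here. The kept probe of highest mean stood for each gene, and 51 genes had probes called in opposite directions.

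Differences were tested two-sided with lmFit and eBayes on the 10 arrays, with Benjamini-Hochberg adjustment over 10168 genes and a threshold of 0.05. The median SE of a log2 fold change was 0.17, and the number of arrays limits the precision. The 4 other arrays (antibody PC61) entered the normalization only, since their spread was known to be larger. The groups, 45 gene lists and alternatives were chosen with earlier results of these data known, and 7 lists (peptide hormones, kallikreins, Serpinb9, embryonic transcription factors, detoxification, clock, keratins) after values were seen. By rule, genes were named for the 10 largest rises and falls without overlap, up to 8 of lowest p per list (all members of lists with 12 or fewer), the 10 largest SDs in each group and the 6 narrowest intervals. Of 271 genes named, 87 fall outside the rule and were chosen after their values were seen. The scripts were tested on simulated data. Y-linked genes and Xist were not analysed here.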

Additional observations from a re-analysis of the deposited data

Results flagged for a closer look

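In 21 of 473 sets of 5 arrays checked for the genes named above, 1 array stood far from the other 4, by a gap above Dixon's 95% critical value, and chance flags about 1 in 20 such sets. PBS array 5 was high for Slc38a4 (9.027, against 6.86 to 7.12 on the other PBS arrays), Prl8a9 (7.771), Prl7c1 (7.416) and Hoxa11 (6.219) and low for Axin2 (8.787). PBS array 3 was high for Ovgp1 (7.659, against 5.33 to 5.57) and Peg3 (11.73), array 4 was high for Lmod1 (6.627) and low for Prl7b1 (10.99), and array 1 was high for Il2rb (5.799). Among non-pregnant arrays, array 2 was low for P2ry14 (10.3, against 13.13 to 13.97) and Adam12 (7.237) and high for Serpina1b (11.26) and Stab1 (10.17). Non-pregnant array 3 was high for Klk1b5 (6.195) and Epor (5.757) and low for Tef (8.639), array 5 was high for Rxfp1 (10.64) and low for Dlx6 (6.484), array 1 was high for Fn1 (11.24) and array 4 low for Timp2 (12.39).

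Of 102 sets of mean list levels, relative to the non-pregnant mean, 4 had such an array. PBS array 3 was lowest for the clock genes (-1.31, against -1.03 to -0.997 on the other PBS arrays) and the immediate early genes (-0.328) and highest for the ovary and oviduct genes (-1.18), and non-pregnant array 3 was highest for the placental cathepsins (0.199).

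Probes without a name here, which no comparison used, carried signal too: 189 of 4592 kept unnamed probes were above background on all 5 PBS arrays and no non-pregnant array, against 91 with the opposite pattern. Of the unnamed probes, 910 were called higher and 1353 lower in the pregnant uterus.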

How the results depend on the processing

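Across 22 other settings the number of genes called lay between 3648 and 5714, against 5480, and no call of a named gene reversed. With each of the 10 arrays left out in turn, 5113 to 5357 genes were called. Median scaling called 3648 genes, with 1305 lower. Without background correction 769 genes were at least 2-fold higher and 578 lower, with the series matrix 751 and 570. Among genes detected on all 10 arrays, which drops genes below background in a group, 1694 were higher and 2276 lower, and 629 at least 2-fold higher and 881 lower, so that falls outnumbered rises. There the medians of the NK cell, Wnt, BMP and hedgehog, and insulin-like growth factor lists turned to -1.85, -0.59 and -0.51, and with median scaling that of mitochondrial ribosomal proteins turned to 0.044. The fit of all 14 arrays called 4702 genes.

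Calls lost under other settings, beside those noted above, were those of Acta2 (median scaling, 14 arrays), Sall1 and Six5 (median scaling) and Igfbp6, Prss28 and Cd244a (14 arrays). With the mean of a gene's probes Col3a1, Dcn and Prf1 differed by -2.59, -1.91 and 2.62, and Csnk1d, Lss and Igf2bp3 by 0.69, 0.85 and 4.2. Leaving out 1 array ended the call of Ihh for 8 of the 10 arrays (log2 fold changes -1.97 to -1.31), of Muc1 for 7 (-1.11 to -0.80), of Hoxa11 for 6 (-1.21 to -0.85), of Itga8 for 6 (0.41 to 0.54), of Fech for 5 (0.47 to 0.64), of Krt14 for 5 (-2.57 to -2.03) and of Mzb1 for 4 (-0.39 to -0.36). The replicate block called 5621 genes. Same-numbered arrays of the groups had correlated deviations of 0.15, 0.0034, 0.19, 0.09 and 0.34, with the own number best for 3 of 5. The labels name no pairs, and the main fit left the numbers out. Whether same-numbered arrays share a factor was not tested. Probes near background bound folds from below.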

Other observations

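A few genes differed more between pregnant than between non-pregnant arrays. Hmgn5, a nucleosome-binding protein, was at 10.22, 9.78, 9.33, 7.83 and 10.11 on PBS arrays 1 to 5, against 8.71, 8.81, 8.62, 8.80 and 8.67 on the non-pregnant arrays, and Hif1a, the oxygen-responsive factor, was at 8.02, 7.30, 7.93, 5.74 and 6.72 in the pregnant and 7.79, 7.84, 7.61, 7.94 and 7.55 in the non-pregnant uterus. Zfp760, a zinc finger gene, was at 7.49, 7.64, 5.93, 5.43 and 7.002 in the pregnant and 6.82, 7.02, 6.67, 6.77 and 7.07 in the non-pregnant uterus. None of the 3 was called between the groups (adjusted p = 0.108, 0.176 and 0.725 in limma).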
